A study of Mus musculus with 6 samples.

Results

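The matrix metalloproteinases and their tissue inhibitors were followed in mouse liver progenitor-like cells (LPCs), epithelial cells that proliferate in culture after being taken from adult liver. The set was chosen by gene symbol and holds 10 genes, the 8 metalloproteinases Mmp2, Mmp3, Mmp7, Mmp9, Mmp10, Mmp13, Mmp14 and Mmp15 and the 2 inhibitors Timp2 and Timp3. All 10 had a row in each of the 6 count tables, among 20573 symbols that the tables share. Polyadenylated RNA was sequenced in 3 groups of 2 libraries. Bec_LPCs grew out of intrahepatic bile duct pieces of WT mice, were plated in matrigel, passaged 1 to 2 times and then sorted, as Epcam+ cells per the series' design text. Hep_LPCs were grown from hepatocytes of ROSA26tdTomato mice given AAV8-TBG-Cre, a virus in which the TBG promoter drives Cre in hepatocytes. NPC_LPCs were grown from livers of AlbCreERT/R26GFP mice, starting with non-parenchymal cells, which are all liver cells that are not hepatocytes. Every group was from C57BL/6 mice labelled 6 to 8 weeks old (8 weeks in the growth protocol of Hep_LPCs and NPC_LPCs) and was kept in Transition and Expansion Medium (TEM). Source, genotype, virus and sort differ together between the groups. The layout of the tables sets Bec_LPCs apart from the other groups, and matrigel plating and passages are stated for Bec_LPCs alone. The effects of these items cannot be told apart. Whether the libraries of a group came from separate cultures or animals is not stated in the labels. A p-value here measures the spread between libraries, which may be technical.

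Total counts were 22985844 and 22634867 reads in Bec_LPCs, 18123118 and 17575998 in Hep_LPCs, and 17919947 and 20625957 in NPC_LPCs. Levels are given as CPM (read counts divided by library size, with library sizes scaled by TMM), always for replicate 1 and then replicate 2 of a group. A count of 3 reads, used as the floor, corresponded to 0.127 to 0.178 CPM and covers counting error only. The replicates of Hep_LPCs and NPC_LPCs lay farther apart than those of Bec_LPCs, with a median difference over all 12868 genes tested of 0.42 (log2) in Hep_LPCs and 0.35 in NPC_LPCs, and of 0.10 in Bec_LPCs. Ddx3y, a gene of the Y chromosome, had 1 read in Hep_LPCs replicate 2, against 60.4 CPM in replicate 1. Biliary markers summed to 3458 to 4109 CPM in Bec_LPCs, 2182 to 4922 CPM in Hep_LPCs and 4698 to 9797 CPM in NPC_LPCs, with all 6 genes of the list detected above the floor in both Bec_LPCs libraries, 5 in Hep_LPCs and 4 in NPC_LPCs. Spp1 was the largest part in every library, at 3114 and 2419 CPM in Bec_LPCs, 3187 and 952.5 CPM in Hep_LPCs, and 9410 and 4314 CPM in NPC_LPCs. Epcam (0.116 and 0.610 CPM), Krt7 (1.50 and 17.7), Krt19 (117 and 282) and Cldn7 (0 and 0) were lower in NPC_LPCs than in Bec_LPCs (59.0 and 65.7, 298 and 365, 472 and 441, 14.0 and 22.7 CPM), while Sox9 overlapped. Hepatocyte markers summed to 105 to 128 CPM in Bec_LPCs, 257 to 265 CPM in Hep_LPCs and 29.2 to 51.4 CPM in NPC_LPCs. Nearly all of this was the transcription factor Hnf4a, at 125.5 and 103.8 CPM in Bec_LPCs, 247.8 and 262.6 CPM in Hep_LPCs, and 28.8 and 51.2 CPM in NPC_LPCs. Alb did not exceed 2.40 CPM in any library, Apoa1 5.56 CPM, Ttr 1.86 CPM and Cps1 0.231 CPM, and Tat had 0 reads.

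Matrix metalloproteinases are zinc enzymes that cut proteins of the extracellular matrix and are made as inactive precursors. Most are secreted, while Mmp14 and Mmp15 are held in the cell membrane. The tissue inhibitors bind their active sites, and Timp2 together with Mmp14 also forms the complex in which the Mmp2 precursor is cut to its active form. In liver these enzymes take part in the turnover of scar matrix and in regeneration, and in injured liver they are made largely by stellate cells, macrophages and other non-epithelial cells.

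Of the 10 genes, 8 had an entry in RefSeq's promoter table of build GRCm38.p6, which gives 250 bases before and 50 bases after each gene's start. Promoters are shown for the 4 members that lie in the metalloproteinase cluster of chromosome 9, whose levels are set side by side below, and for Mmp14, the metalloproteinase with the highest level per length in every library. Capitals mark 2 motifs, TGANTCA on either strand, the site of AP-1, the dimers of Fos and Jun proteins, and TATAAA on the gene's strand, the TATA box. All 5 lie on the plus strand. The windows are chr9:7272264-7272563 for Mmp13, chr9:7445572-7445871 for Mmp3, chr9:7502092-7502391 for Mmp10, chr9:7691840-7692139 for Mmp7 and chr14:54431348-54431647 for Mmp14.
Mmp13: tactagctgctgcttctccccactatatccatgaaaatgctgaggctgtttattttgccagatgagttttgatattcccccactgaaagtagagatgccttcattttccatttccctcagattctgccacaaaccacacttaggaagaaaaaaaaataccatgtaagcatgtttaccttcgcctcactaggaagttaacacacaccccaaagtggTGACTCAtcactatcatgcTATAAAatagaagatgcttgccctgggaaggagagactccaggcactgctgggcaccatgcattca
Mmp3: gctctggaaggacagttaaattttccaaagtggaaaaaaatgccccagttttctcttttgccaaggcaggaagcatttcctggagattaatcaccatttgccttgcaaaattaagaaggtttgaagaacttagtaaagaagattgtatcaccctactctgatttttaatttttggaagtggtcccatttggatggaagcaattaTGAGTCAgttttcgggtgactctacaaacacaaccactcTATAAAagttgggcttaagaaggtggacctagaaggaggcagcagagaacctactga
Mmp10: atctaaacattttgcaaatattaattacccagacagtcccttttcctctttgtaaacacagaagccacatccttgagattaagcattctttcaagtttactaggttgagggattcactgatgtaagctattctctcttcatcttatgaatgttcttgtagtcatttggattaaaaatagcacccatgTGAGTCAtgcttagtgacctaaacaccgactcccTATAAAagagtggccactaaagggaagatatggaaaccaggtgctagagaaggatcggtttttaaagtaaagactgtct
Mmp7: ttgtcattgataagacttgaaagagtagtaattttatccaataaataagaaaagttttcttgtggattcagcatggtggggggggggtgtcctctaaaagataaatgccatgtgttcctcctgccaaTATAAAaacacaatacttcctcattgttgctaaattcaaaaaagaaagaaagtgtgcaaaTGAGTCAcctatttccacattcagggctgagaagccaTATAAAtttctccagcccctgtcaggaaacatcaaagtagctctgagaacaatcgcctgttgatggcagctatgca
Mmp14: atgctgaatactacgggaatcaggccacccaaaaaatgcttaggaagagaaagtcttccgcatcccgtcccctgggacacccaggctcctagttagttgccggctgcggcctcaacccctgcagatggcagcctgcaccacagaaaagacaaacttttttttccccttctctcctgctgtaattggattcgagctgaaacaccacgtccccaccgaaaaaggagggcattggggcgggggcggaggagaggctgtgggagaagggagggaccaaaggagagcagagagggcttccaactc
The AP-1 letters began 35 bases before the start in Mmp13, 46 in Mmp3, 63 in Mmp10 and 63 in Mmp7. The nearest TATAAA began 16, 7, 29 and 26 bases before the start of the same genes in that order, and the Mmp7 window held 2. Both motifs were in the same 4 of the 8 windows and in none of those of Mmp14, Mmp15, Timp2 and Timp3. Over all 27025 promoters of the table, 7.93% held TGANTCA and 8.88% held TATAAA. The 2 motifs do not overlap in these windows, and a match describes the letters only.

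Mmp14 and Timp2 were the dominant transcripts of the set in all 6 libraries. Per kilobase of exonic length, both together made up 90.7% and 89.5% of the set's summed CPM in Bec_LPCs, 77.6% and 93.1% in Hep_LPCs, and 81.0% and 83.8% in NPC_LPCs. The summed level of the 8 metalloproteinases was 95.9 and 95.8 CPM per kb in Bec_LPCs, 115 and 201 CPM per kb in Hep_LPCs, and 244 and 196 CPM per kb in NPC_LPCs. Bec_LPCs thus held the lowest sums, and their libraries overlapped with neither of the other groups. The sum of Timp2 and Timp3 was 222 and 221 CPM per kb in Bec_LPCs, 146 and 189 CPM per kb in Hep_LPCs, and 242 and 301 CPM per kb in NPC_LPCs. The ratio of this inhibitor sum to the metalloproteinase sum was 2.31 in both Bec_LPCs libraries, 1.26 and 0.94 in Hep_LPCs, and 0.994 and 1.53 in NPC_LPCs. In bulk RNA, fewer cells making a transcript and less of it per cell cannot be told apart.

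**Figure D1:**
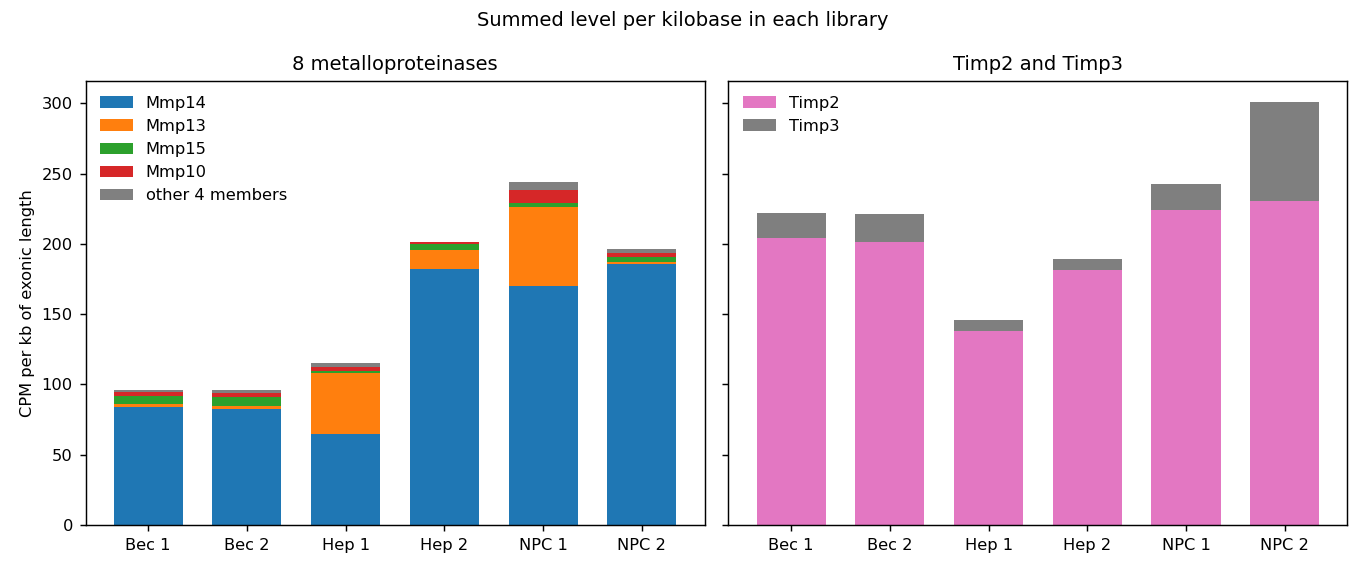
Summed level per kilobase of exonic length (CPM per kb) of the 8 metalloproteinases (left) and of Timp2 and Timp3 (right), 1 bar per library, stacked by gene. Mmp14 fills most of each left bar, Mmp13 a visible part in Hep_LPCs replicate 1 and NPC_LPCs replicate 1, and the Bec_LPCs metalloproteinase bars, at 95.9 and 95.8 CPM per kb, are the lowest.

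No member passed the test across all genes in any of the 3 comparisons. In Hep_LPCs against NPC_LPCs, edgeR's quasi-likelihood test called 0 of the 8 members tested at an adjusted p under 0.05, beside a background of 0.796% of 12312 genes (0.349% higher, 0.447% lower). At an unadjusted p under 0.05 there were 3 members (Mmp7, Mmp10 and Timp3), beside 22.2% of all genes. DESeq2 called 1 (Timp3), beside 12.3% of all genes, and limma-voom 0, beside 0.0406%. In Bec_LPCs against NPC_LPCs 0 of 10 members were called, beside 11.3% of 12868 genes (4.88% higher, 6.44% lower), with 1 member (Mmp7) under 0.05 before adjustment, beside 31.5% of all genes. DESeq2 called 0 there, beside 22.5% of all genes, and limma-voom 1 (Mmp7), beside 14.1%. In Bec_LPCs against Hep_LPCs 0 of the 9 members given a fold were called, beside 33.4% of the same genes (16.1% higher, 17.2% lower), with 1 member (Mmp15) under 0.05 before adjustment, beside 47.3% of all genes. DESeq2 called 3 there (Mmp9, Mmp15 and Timp3), beside 42.0% of all genes, and limma-voom 1 (Mmp15), beside 36.5%. A p that misses the threshold does not show that levels were alike. With library sizes left unscaled the share of called genes that were higher was 61.3% for Bec_LPCs against NPC_LPCs, against 43.1% with TMM, and 60.9% for Bec_LPCs against Hep_LPCs, against 48.3% with TMM. The median of all genes then stood at 0.17 and 0.21 (log2), against 0.01 and 0.03 with TMM, and no member turned its direction.

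The Bec_LPCs comparisons share 1 estimate of spread over all 6 libraries. When only the 4 libraries of a pair were fitted, 3 of 10 members were called in Bec_LPCs against NPC_LPCs, beside 19.6% of 12694 genes, namely Mmp7 and Mmp14 lower and Mmp15 higher. Likewise 3 of 9 were called in Bec_LPCs against Hep_LPCs, beside 39.3% of 12743 genes, namely Mmp13 lower and Mmp9 and Timp3 higher. The last share is near its background. The median log2 fold change of the members tested was -0.63 in Hep_LPCs against NPC_LPCs, -1.21 in Bec_LPCs against NPC_LPCs and 0.38 in Bec_LPCs against Hep_LPCs, beside medians over all genes of -0.0031, 0.01 and 0.03. These comparisons share libraries, so their values are given side by side and not correlated.

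**Figure D2:**
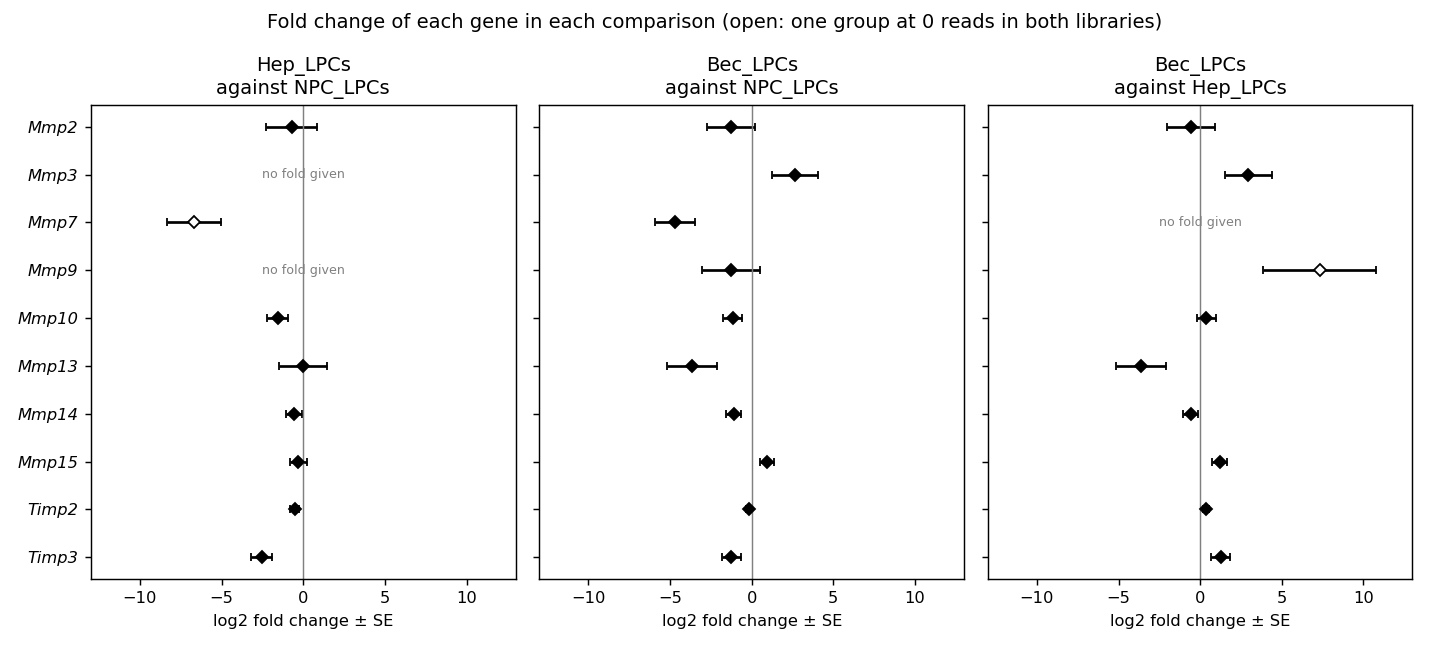
Log2 fold change ± SE of each gene (rows) in the 3 comparisons, from fits of n = 2 libraries per group; open symbols have 1 group at 0 reads in both libraries, where the fitted value depends on the prior count. All 8 members with a value lie below 0 in Hep_LPCs against NPC_LPCs, and none of the 27 values passed the adjusted threshold.

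Mmp14, the membrane-type enzyme that cuts fibrillar collagen at the cell surface (chromosome 14, 54431612 to 54445364, plus strand; coordinates here and below are of mm10 from GENCODE M21), was measured from 6574 to 21786 reads per library. Its level was 500.4 and 491.5 CPM in Bec_LPCs, 385 and 1087 CPM in Hep_LPCs, and 1012 and 1107 CPM in NPC_LPCs. Both Bec_LPCs libraries lay below both NPC_LPCs libraries, while the Hep_LPCs libraries straddled the Bec_LPCs values. Bec_LPCs against NPC_LPCs gave a log2 fold change of -1.10 ± 0.46 (edgeR adjusted p = 0.168). In the fit of those 4 libraries alone the same fold had an SE of 0.11 and an adjusted p of 0.0161. Without either Hep_LPCs library in the shared fit it was also called, with adjusted p = 0.0163 and 0.0162. Hep_LPCs against NPC_LPCs gave -0.55 ± 0.49 (adjusted p = 0.547), and Bec_LPCs against Hep_LPCs gave -0.57 ± 0.46 (adjusted p = 0.364). That last difference was -1.13 without Hep_LPCs replicate 1 (adjusted p = 0.0143) and 0.37 without Hep_LPCs replicate 2. Mmp14 held 87.6% and 86.1% of the metalloproteinase sum per kilobase in Bec_LPCs, 55.9% and 90.6% in Hep_LPCs, and 69.7% and 94.7% in NPC_LPCs.

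Mmp15, a second membrane-type enzyme (chromosome 8, 95352268 to 95375080, plus strand), was highest in Bec_LPCs. It stood at 32.2 and 31.3 CPM in Bec_LPCs, 7.67 and 20.1 CPM in Hep_LPCs, and 15.4 and 18.2 CPM in NPC_LPCs. The Bec_LPCs libraries lay above all 4 others, and the NPC_LPCs values lay between those of Hep_LPCs. The log2 fold change was 1.20 ± 0.45 against Hep_LPCs (edgeR adjusted p = 0.0850) and 0.92 ± 0.44 against NPC_LPCs (adjusted p = 0.216). The first was called by DESeq2 (adjusted p = 0.0329), by limma-voom (0.0425) and without Hep_LPCs replicate 2 (0.0106, log2 fold change 2.05). It was not called in the fit of those 4 libraries (1.18, adjusted p = 0.116) or without Hep_LPCs replicate 1 (0.66, adjusted p = 0.0781). Against NPC_LPCs the 4-library fit gave 0.91 ± 0.16 (adjusted p = 0.0323). Hep_LPCs and NPC_LPCs differed by -0.30 ± 0.51 (adjusted p = 0.768).

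Mmp13, the principal interstitial collagenase of rodents (chromosome 9, 7272514 to 7283331, plus strand), had the most scattered levels among the abundant members. It was measured at 5.78 and 6.56 CPM in Bec_LPCs (137 and 153 reads), 117 and 36.2 CPM in Hep_LPCs (2003 and 610 reads), and 151 and 4.02 CPM in NPC_LPCs (2622 and 79 reads). Both Hep_LPCs libraries lay above both Bec_LPCs libraries, but the NPC_LPCs libraries were the highest and the lowest of all 6. Its share of the metalloproteinase sum per kilobase was 2.26% and 2.56% in Bec_LPCs, 38.0% and 6.72% in Hep_LPCs, and 23.2% and 0.766% in NPC_LPCs. Bec_LPCs against Hep_LPCs gave a log2 fold change of -3.63 ± 1.52 (edgeR adjusted p = 0.112), and -3.65 ± 0.65 (adjusted p = 0.0181) in the 4-library fit. It was -2.55 without Hep_LPCs replicate 1 (adjusted p = 0.331) and -4.25 without Hep_LPCs replicate 2 (adjusted p = 0.144). Bec_LPCs against NPC_LPCs gave -3.65 ± 1.52 (adjusted p = 0.166), which was -4.62 without NPC_LPCs replicate 2 (adjusted p = 0.0363) and 0.57 without NPC_LPCs replicate 1. Hep_LPCs against NPC_LPCs gave -0.02 ± 1.46 (adjusted p = 0.996), and 4.23 without NPC_LPCs replicate 1. The 1 NPC_LPCs library that is kept therefore sets the sign of both differences from NPC_LPCs.

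**Figure D3:**
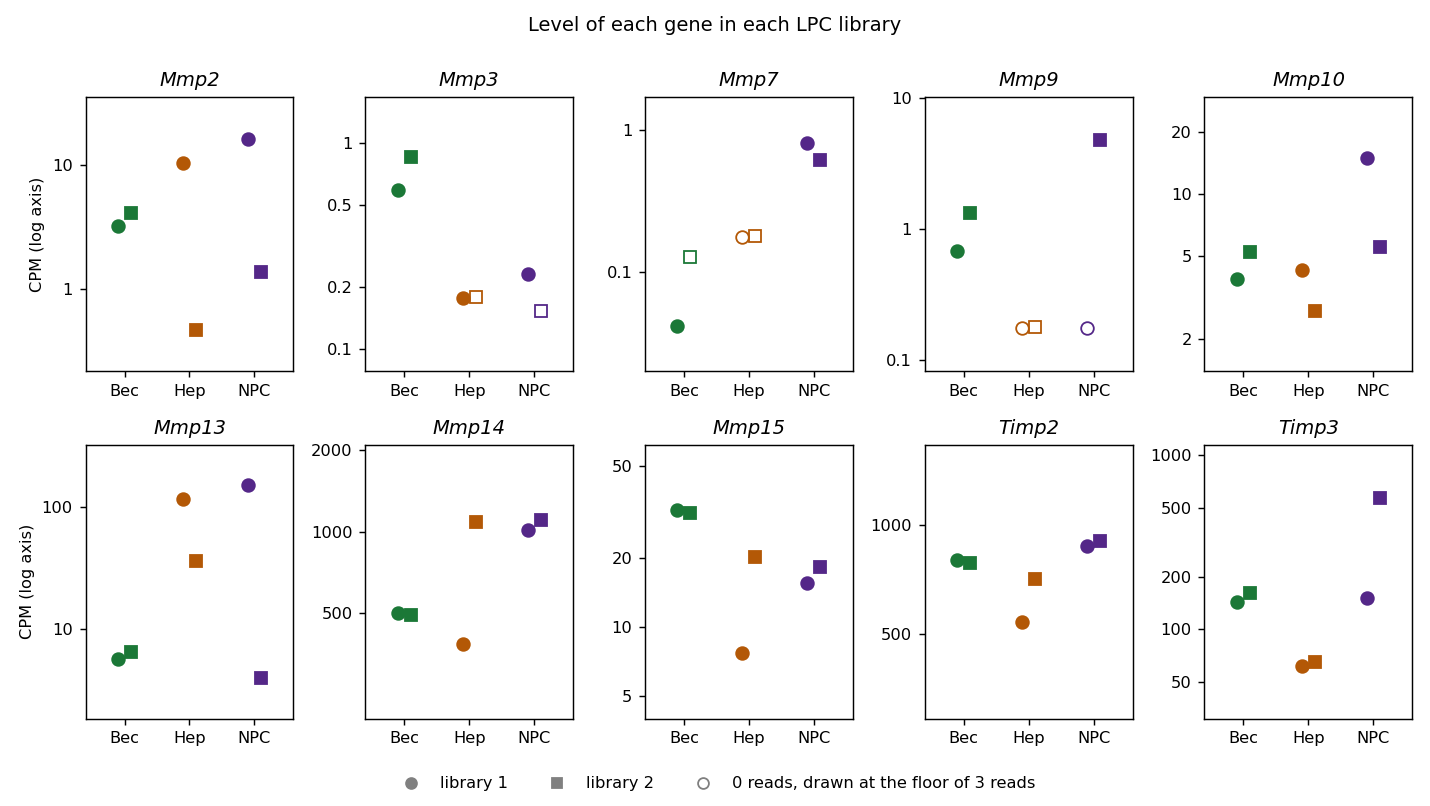
CPM of each of the 10 genes in each library on log axes, with Bec_LPCs, Hep_LPCs and NPC_LPCs from left to right, circles for replicate 1 and squares for replicate 2; open symbols mark 0 reads, drawn at the floor of 3 reads. Mmp14, Mmp15 and Timp2 sit close together in Bec_LPCs, while the 2 NPC_LPCs libraries of Mmp13 stand at 151 and 4.02 CPM.

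The gelatinases Mmp2 and Mmp9 cut denatured collagen and the collagen of basement membranes. Mmp2 (chromosome 8, 92827291 to 92853420, plus strand) stood at 3.21 and 4.12 CPM in Bec_LPCs, 10.2 and 0.475 CPM in Hep_LPCs, and 16.2 and 1.37 CPM in NPC_LPCs. Replicate 1 was above replicate 2 by 21.6 times in Hep_LPCs (175 and 8 reads) and 11.8 times in NPC_LPCs (281 and 27 reads), and both groups enclosed the Bec_LPCs values. Every fold change of Mmp2 was smaller than its SE, at -1.26 ± 1.47 in Bec_LPCs against NPC_LPCs (edgeR adjusted p = 0.598), -0.55 ± 1.46 in Bec_LPCs against Hep_LPCs (0.792) and -0.72 ± 1.59 in Hep_LPCs against NPC_LPCs (0.825).

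Mmp9 (chromosome 2, 164940780 to 164955850, plus strand) had 16 and 31 reads in Bec_LPCs (0.675 and 1.33 CPM), 0 reads in both Hep_LPCs libraries, and 0 and 94 reads in NPC_LPCs (4.78 CPM in replicate 2). It was detected in every Bec_LPCs library, in no Hep_LPCs library and in 1 of the NPC_LPCs libraries. Against the floor of 3 reads per library the Bec_LPCs level was at least 5.67-fold higher than in Hep_LPCs (edgeR adjusted p = 0.163, or 0.0295 in the 4-library fit). Bec_LPCs against NPC_LPCs gave -1.26 ± 1.76 (adjusted p = 0.667). Hep_LPCs and NPC_LPCs were not compared, because the gene did not pass the count filter in those 4 libraries. Macrophages and neutrophils are known sources of Mmp9. The 6 macrophage markers summed to 60.7 to 67.5 CPM in Bec_LPCs, 55.2 to 120 CPM in Hep_LPCs and 74.7 to 247 CPM in NPC_LPCs. Cd14 (39.2 to 161 CPM over the libraries) and Cd68 (8.66 to 83.9 CPM) made up most of each sum. Csf1r did not exceed 3.22 CPM and Adgre1 0.257 CPM in any library. Clec4f of Kupffer cells was at 0 reads in all libraries, and the pan-leukocyte gene Ptprc had 14 and 18 reads in Bec_LPCs, 3 and 1 in Hep_LPCs and 2 and 5 in NPC_LPCs. The 5 neutrophil markers summed to at most 1.99 CPM in any library, in Hep_LPCs. The part of such cells in the Mmp9 reads was not tested.

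The stromelysins Mmp3 and Mmp10 cut proteoglycans, laminin and fibronectin and can cut other metalloproteinase precursors. Mmp10 (chromosome 9, 7502352 to 7510240, plus strand) was at 3.88 and 5.23 CPM in Bec_LPCs, 4.27 and 2.73 CPM in Hep_LPCs, and 15.0 and 5.54 CPM in NPC_LPCs. The NPC_LPCs libraries were above all 4 others, the lower one by a narrow margin, and Bec_LPCs and Hep_LPCs overlapped. The log2 fold change was -1.56 ± 0.63 in Hep_LPCs against NPC_LPCs (edgeR adjusted p = 0.223), -1.17 ± 0.56 in Bec_LPCs against NPC_LPCs (0.216) and 0.38 ± 0.56 in Bec_LPCs against Hep_LPCs (0.625). Without NPC_LPCs replicate 1 the first was -0.68 (adjusted p = 0.725) and the second -0.33 (adjusted p = 0.675).

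Mmp3 (chromosome 9, 7445822 to 7455975, plus strand) was barely detected, with 14 and 20 reads in Bec_LPCs (0.591 and 0.857 CPM), 3 and 0 in Hep_LPCs, and 4 and 0 in NPC_LPCs. Both Bec_LPCs libraries exceeded all others. The ratio of summed reads per effective library size of Bec_LPCs to Hep_LPCs was 8.18 (exact 95% counting interval 2.57 to 41.6). This interval, like those given below for Mmp7 and Mmp12, covers counting error only and leaves out the spread between replicates. The test across all genes gave log2 fold changes of 2.95 ± 1.45 against Hep_LPCs (edgeR adjusted p = 0.162) and 2.64 ± 1.39 against NPC_LPCs (0.254). They were 2.01 without Hep_LPCs replicate 2 (adjusted p = 0.367) and 1.62 without NPC_LPCs replicate 2 (adjusted p = 0.451).

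Mmp7, matrilysin, is an epithelial enzyme that is made by bile duct cells in liver disease (chromosome 9, 7692090 to 7699585, plus strand). It had 1 and 0 reads in Bec_LPCs, 0 and 0 in Hep_LPCs, and 14 and 12 in NPC_LPCs (0.808 and 0.610 CPM). Reads above the floor were thus found in NPC_LPCs alone among these libraries, and in both of them. Against the floor, Hep_LPCs were at least 4.01-fold lower than NPC_LPCs (edgeR adjusted p = 0.120). The ratio of Bec_LPCs to NPC_LPCs in summed reads per effective library size was 0.0303 (exact 95% counting interval 7.38e-04 to 0.184), with an adjusted p of 0.0713, which was 0.0460 in the 4-library fit and 0.0296 by limma-voom. Between Bec_LPCs and Hep_LPCs no fold is given, since both were at or under the floor. Some of these reads may not be of Mmp7. The antisense gene AV064505 shares 123 exonic bases with it (11.5% of the exonic length), no source used here gives the strand setting of the counting, and the deposited FPKM was 0.147 and 0.269 in NPC_LPCs, against 0.757 and 0.571 CPM per kb from the counts.

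Timp2, which inhibits most metalloproteinases and also helps Mmp14 to activate Mmp2, was the most evenly expressed member (chromosome 11, 118301069 to 118355740, minus strand). It stood at 796 and 784 CPM in Bec_LPCs, 538 and 706 CPM in Hep_LPCs, and 872 and 899.6 CPM in NPC_LPCs. The groups did not overlap, with Hep_LPCs lowest and NPC_LPCs highest, yet the fold changes were small. They were -0.53 ± 0.26 in Hep_LPCs against NPC_LPCs (edgeR adjusted p = 0.299), -0.17 ± 0.19 in Bec_LPCs against NPC_LPCs (0.588) and 0.35 ± 0.19 in Bec_LPCs against Hep_LPCs (0.197). The last was called without Hep_LPCs replicate 2 (0.55, adjusted p = 0.0406). Per kilobase, the ratio of Timp2 to Mmp14 was 2.43 and 2.44 in Bec_LPCs, 2.14 and 0.993 in Hep_LPCs, and 1.32 and 1.24 in NPC_LPCs. The ratio was higher in both Bec_LPCs libraries than in any other, and it carries no test here.

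Timp3, the inhibitor that stays bound to the matrix and also blocks several ADAM enzymes (chromosome 10, 86300372 to 86349506, plus strand), was lowest in Hep_LPCs. It was at 144 and 161 CPM in Bec_LPCs, 61.8 and 65.1 CPM in Hep_LPCs, and 151 and 570.4 CPM in NPC_LPCs. The Hep_LPCs libraries lay below all others, and NPC_LPCs replicate 1 lay between the Bec_LPCs values while replicate 2 was 3.78 times replicate 1. The log2 fold change was -2.54 ± 0.65 in Hep_LPCs against NPC_LPCs (edgeR adjusted p = 0.120), which was called by DESeq2 (adjusted p = 2.56e-04) and without NPC_LPCs replicate 1 (-3.19, adjusted p = 0.00645). Without NPC_LPCs replicate 2 it was -1.25 (adjusted p = 0.160). It was 1.26 ± 0.57 in Bec_LPCs against Hep_LPCs (adjusted p = 0.134), and 1.25 ± 0.14 (adjusted p = 0.00780) in the 4-library fit. Bec_LPCs against NPC_LPCs gave -1.24 ± 0.57 (adjusted p = 0.198), -1.95 without NPC_LPCs replicate 1 (adjusted p = 0.0160) and 0.013 without NPC_LPCs replicate 2 (adjusted p = 0.967). Timp3 shares 1733 exonic bases (21.3%) with Syn3 on the opposite strand, and Syn3 itself was at 2.92 to 10.2 CPM over the 6 libraries. Timp3 is not among the genes taken as counted alike in both kinds of table. In its comparisons with Bec_LPCs, a difference in counting therefore cannot be told apart from one in expression. Timp1, the third inhibitor and not one of the 10 genes, averaged 67.8 ± 0.0904 CPM in Bec_LPCs, 45.3 ± 6.86 CPM in Hep_LPCs and 56.0 ± 14.2 CPM in NPC_LPCs (SD, n = 2 each) and was called in no comparison (edgeR adjusted p = 0.0964 to 0.547).

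Counting the members tested whose groups did not overlap gave 4 of 8 in Hep_LPCs against NPC_LPCs, all lower (Mmp7, Mmp10, Timp2 and Timp3), beside 56.6% of 12159 genes whose groups did not overlap (28.9% higher, 27.7% lower). It gave 6 of 10 in Bec_LPCs against NPC_LPCs, with Mmp3 and Mmp15 higher and Mmp7, Mmp10, Mmp14 and Timp2 lower, beside 70.0% of 12868 genes (37.0% higher, 33.0% lower). It gave 6 of 9 in Bec_LPCs against Hep_LPCs, with Mmp3, Mmp9, Mmp15, Timp2 and Timp3 higher and Mmp13 lower, beside 77.6% of the same genes (40.8% higher, 36.8% lower). Over both directions, the members' shares lay somewhat below those of all genes in each comparison. These gaps rest on 8 to 10 members and are not read as a result about the set. With 2 libraries a group, an absence of overlap carries no test.

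Replicates of 1 group differed more for the secreted collagenase and the gelatinases than for most genes. Between the NPC_LPCs replicates the log2 difference was 5.20 for Mmp13, larger than in 99.6% of the 12868 genes tested, 5.58 for Mmp9 (99.7%) and 3.47 for Mmp2 (98.5%), against a median of 0.35. Mmp13 and Mmp2 were higher in replicate 1, and Mmp9 and Timp3 (1.92) in replicate 2. Between the Hep_LPCs replicates Mmp2 differed by 4.17 (99.7%), Mmp13 by 1.69 (94.4%) and Mmp14 by 1.50 (92.7%), against a median of 0.42. Mmp2 and Mmp13 were again higher in replicate 1, and Mmp14 and Mmp15 (1.37) in replicate 2. In Bec_LPCs the largest difference among the members was 0.88, for Mmp9, and Mmp14, Mmp15 and Timp2 differed by 0.026, 0.037 and 0.021. Timp2 differed by 0.044 in NPC_LPCs and by 0.39 in Hep_LPCs, the latter near the median of that group. These differences are of log2 CPM (prior count 2).

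**Figure D4:**
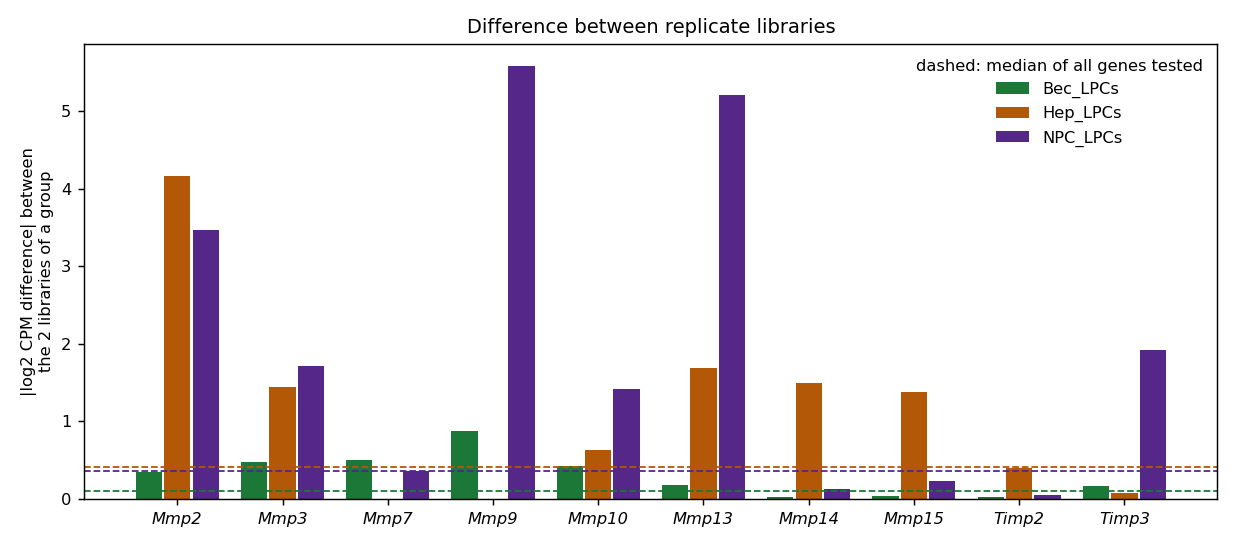
Absolute log2 CPM difference between the 2 libraries of each group for each of the 10 genes, with the median over all 12868 genes tested as dashed lines. The tallest bars are Mmp9 (5.58) and Mmp13 (5.20) in NPC_LPCs and Mmp2 (4.17) in Hep_LPCs; bars of 0 are Mmp7 and Mmp9 in Hep_LPCs, which had 0 reads.

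Mmp13, Mmp3, Mmp10 and Mmp7 lie in a metalloproteinase cluster that spans 427.1 kb of chromosome 9 (7272514 to 7699585). In GENCODE M21 as read here, the genes annotated as protein-coding in this span were 9 metalloproteinase genes and no others. Mmp1a is not among these 9 and had 0 reads in every library. The order of the 9 is Mmp13, Mmp12, Mmp1b, Mmp3, Mmp10, Mmp8, Mmp27, Mmp20 and Mmp7, all on the plus strand except Mmp1b. Neighbours were not at like levels. Mmp12, the macrophage elastase next to Mmp13, was at 13.6 and 12.1 CPM in Bec_LPCs, 0 and 0.0593 CPM in Hep_LPCs, and 0.577 and 0.203 CPM in NPC_LPCs. It was called higher in Bec_LPCs against Hep_LPCs (edgeR adjusted p = 0.00379), where the ratio of summed reads per effective library size rests on 1 Hep_LPCs read and was 436 (exact 95% counting interval 78.0 to 17250.0), and against NPC_LPCs (5.04 ± 0.70, adjusted p = 0.0156). Mmp13 was at its lowest group mean in Bec_LPCs, at 6.17 ± 0.550 CPM, against 76.7 ± 57.3 CPM in Hep_LPCs and 77.7 ± 104 CPM in NPC_LPCs (SD, n = 2 each). Mmp1b, Mmp8 and Mmp20 did not exceed 0.173 CPM in any library, and Mmp27 reached 0.866 CPM in NPC_LPCs replicate 1. The macrophage marker sums of Bec_LPCs, given above and mostly of Cd14 and Cd68, lay within the range of the other groups. Ptprc and Adgre1, by contrast, had more reads in Bec_LPCs (for Adgre1 3 and 6, against at most 1 in each other library). The part of macrophages in the Mmp12 level was not tested.

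**Figure D5:**
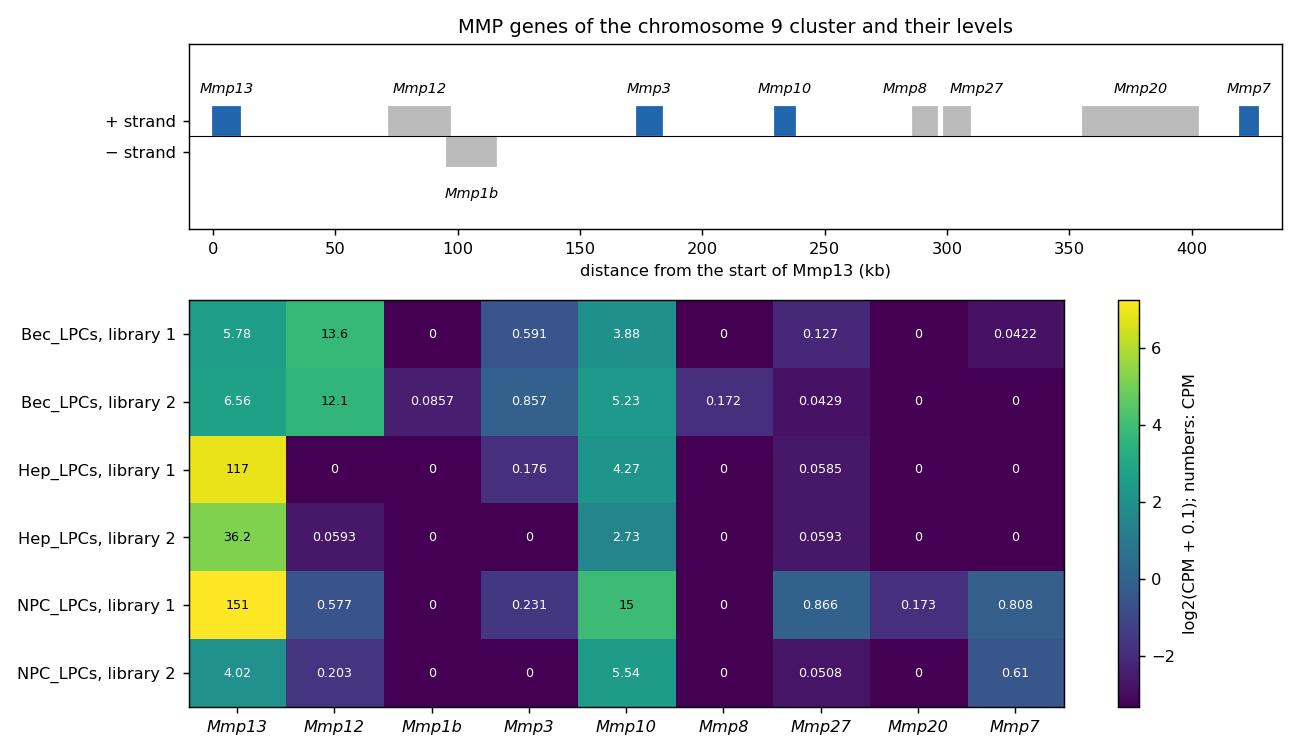
Top, map of the 9 metalloproteinase genes annotated as protein-coding in the chromosome 9 cluster, in kb from the start of Mmp13. Members are in blue and other genes in grey. Bottom, CPM of these 9 genes in each library (colour as log2(CPM + 0.1)). Mmp12 is at 13.6 and 12.1 CPM in Bec_LPCs and at most 0.577 CPM elsewhere, while its neighbour Mmp13 is higher in 3 of the other 4 libraries than in Bec_LPCs.

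Other genes of the pathway were read from 7 lists of 95 genes chosen by known role. Over all lists 1 of 62 tested genes was called in Hep_LPCs against NPC_LPCs (1.61%, beside 0.796% of all genes), 8 of 69 in Bec_LPCs against NPC_LPCs (11.6%, beside 11.3%; 4 higher, 4 lower) and 26 of 69 in Bec_LPCs against Hep_LPCs (37.7%, beside 33.4%; 16 higher, 10 lower). These edgeR shares are near those of all genes. DESeq2 called 20 of the 62 (32.3%, beside 12.3% of all genes), 21 of the 69 (30.4%, beside 22.5%) and 33 of the 69 (47.8%, beside 42.0%) in the same order of comparisons. At an unadjusted p under 0.05 there were 25 of 62 in Hep_LPCs against NPC_LPCs (40.3%, beside 22.2%), and limma-voom called 0 there (beside 0.0406%), 10 in Bec_LPCs against NPC_LPCs (14.5%, beside 14.1%) and 26 in Bec_LPCs against Hep_LPCs (37.7%, beside 36.5%).

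The single call in Hep_LPCs against NPC_LPCs was Pcsk6, a proprotein convertase of the family that cuts the precursors of membrane-type metalloproteinases. Pcsk6 was at 32.7 and 33.6 CPM in Bec_LPCs, 91.0 and 82.7 CPM in Hep_LPCs, and 5.20 and 8.39 CPM in NPC_LPCs. The 3 groups did not overlap, and Pcsk6 was called in each comparison, with 3.65 ± 0.35 in Hep_LPCs against NPC_LPCs (edgeR adjusted p = 0.0317), 2.28 ± 0.26 in Bec_LPCs against NPC_LPCs (0.00965) and -1.39 ± 0.25 in Bec_LPCs against Hep_LPCs (0.0129). Among the 14 processing and surface partners, 4 were called in Bec_LPCs against NPC_LPCs (28.6%, beside 11.3% of all genes; 2 higher, 2 lower) and 6 in Bec_LPCs against Hep_LPCs (42.9%, beside 33.4%; 3 higher, 3 lower). Lcn2, which binds Mmp9 and shields it from degradation, was at 1.10 and 0.214 CPM in Bec_LPCs and 1827 and 692 CPM in NPC_LPCs (-10.89 ± 1.53, adjusted p = 0.0160). Cd44, a hyaluronan receptor that holds Mmp9 and Mmp14 at the cell surface, was at 1484 and 1464 CPM in Bec_LPCs and 469.5 and 581 CPM in Hep_LPCs (1.49 ± 0.18, adjusted p = 0.00467). Hpn, the membrane protease hepsin, was higher in Bec_LPCs against both (4.32 ± 0.75 against NPC_LPCs and 4.60 ± 0.76 against Hep_LPCs), and Cav1, caveolin-1, lower against both (-1.33 ± 0.22 and -1.44 ± 0.22).

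Of 12 tested ADAMTS proteases, secreted relatives that cut proteoglycans and collagen precursors, 6 were called higher and 0 lower in Bec_LPCs against Hep_LPCs, beside 16.1% and 17.2% of all genes. Adamts5, an aggrecan-cutting enzyme, was at 13.3 and 14.3 CPM in Bec_LPCs and 0.117 and 0.534 CPM in Hep_LPCs (5.38 ± 0.85, edgeR adjusted p = 0.00919). Adamts2, which trims procollagen, gave 2.23 ± 0.48, Adamts10 1.88 ± 0.32 and Adamts6 1.75 ± 0.43 (adjusted p = 0.0203, 0.0111 and 0.0278). None of the ADAMTS genes was called against NPC_LPCs in Bec_LPCs (beside 11.3% of all genes) or in Hep_LPCs (beside 0.796%) by edgeR. In Bec_LPCs against NPC_LPCs 4 of 12 had a p under 0.05 before adjustment (beside 31.5% of all genes), and DESeq2 called 3 (beside 22.5%) and limma-voom 2 (beside 14.1%). In Hep_LPCs against NPC_LPCs 6 of 10 had one (beside 22.2%), and DESeq2 called 6 (beside 12.3%) and limma-voom 0 (beside 0.0406%). The median ADAMTS fold was 1.61 in Bec_LPCs against Hep_LPCs, beside 0.03 for all genes. Mesenchymal and stellate markers, 9 genes, summed to 164 to 195 CPM in Bec_LPCs, 4.39 to 6.26 CPM in Hep_LPCs and 5.54 to 16.0 CPM in NPC_LPCs. They were led by Acta2 (77.6 and 94.1 CPM in Bec_LPCs) and Col1a1 (63.7 and 76.9 CPM), while Lrat of stellate cells and Lum were at 0 in all libraries; their part in the ADAMTS result was not tested.

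Of the ADAM proteases, membrane enzymes that shed surface proteins, edgeR called 0 of 9 in Hep_LPCs against NPC_LPCs (beside 0.796% of all genes). There 1 had an unadjusted p under 0.05 (beside 22.2%), and DESeq2 called 1 (beside 12.3%) and limma-voom 0 (beside 0.0406%). EdgeR called 1 in Bec_LPCs against NPC_LPCs (11.1%, beside 11.3%) and 3 in Bec_LPCs against Hep_LPCs (33.3%, beside 33.4%), so that the family was called about as often as all genes. Adam12 was at 116 and 128 CPM in Bec_LPCs and 6.50 and 20.0 CPM in Hep_LPCs (3.20 ± 0.59, edgeR adjusted p = 0.0137). Adam9 was also higher against Hep_LPCs (0.65 ± 0.15), Adam8 lower (-1.11 ± 0.21), and Adam15 lower against NPC_LPCs (-0.82 ± 0.17). Among the other metalloproteinases edgeR called 0 of 5 in Hep_LPCs against NPC_LPCs (beside 0.796% of all genes), 1 of 7 in Bec_LPCs against NPC_LPCs (beside 11.3%) and 2 of 7 in Bec_LPCs against Hep_LPCs (beside 33.4%). In the first comparison 2 had an unadjusted p under 0.05 (beside 22.2%), and DESeq2 called 1 (beside 12.3%) and limma-voom 0 (beside 0.0406%). Besides Mmp12 the called gene was Mmp28, epilysin of epithelia, at 0.675 and 0.429 CPM in Bec_LPCs and 11.9 and 12.3 CPM in Hep_LPCs (-4.44 ± 0.76, adjusted p = 0.0115). Mmp28 shares 12.0% of its exonic length with another gene and is not among the genes taken as counted alike in both kinds of table.

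Of the other inhibitors, Reck, a membrane-anchored inhibitor, was called higher in Bec_LPCs against Hep_LPCs at 4.32 ± 1.04 CPM and 0.826 ± 0.175 CPM (2.38 ± 0.47, edgeR adjusted p = 0.0154). Tfpi2, a secreted protease inhibitor, had 16 and 20 reads in Bec_LPCs and 0 in both Hep_LPCs libraries, at least 4.33-fold higher (adjusted p = 0.0362). Neither of the other comparisons called an inhibitor by edgeR. In Hep_LPCs against NPC_LPCs 1 of 2 had an unadjusted p under 0.05 (beside 22.2% of all genes). DESeq2 called 1 there (beside 12.3%) and limma-voom 0 (beside 0.0406%). In Bec_LPCs against NPC_LPCs 1 of 3 had an unadjusted p under 0.05 (beside 31.5%), and DESeq2 called 0 (beside 22.5%) and limma-voom 1 (beside 14.1%). Of 9 tested genes of plasminogen activation, a protease system that activates metalloproteinase precursors, edgeR called 0 in each comparison. All genes were called at 0.796% in Hep_LPCs against NPC_LPCs, 11.3% in Bec_LPCs against NPC_LPCs and 33.4% in Bec_LPCs against Hep_LPCs. Unadjusted p-values under 0.05 numbered 3 in Hep_LPCs against NPC_LPCs (beside 22.2% of all genes), 2 in Bec_LPCs against NPC_LPCs (beside 31.5%) and 1 in Bec_LPCs against Hep_LPCs (beside 47.3%). In the same order DESeq2 called 1, 2 and 1 (beside 12.3%, 22.5% and 42.0%). Limma-voom called 0 in all (beside 0.0406%, 14.1% and 36.5%).

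Of 15 tested AP-1, ETS and RUNX factors, families that bind metalloproteinase promoters, edgeR called 0 in Hep_LPCs against NPC_LPCs (beside 0.796% of all genes). There 9 had an unadjusted p under 0.05 (beside 22.2% of all genes), DESeq2 called 6 (beside 12.3%) and limma-voom 0 (beside 0.0406%). EdgeR called 2 in Bec_LPCs against NPC_LPCs (13.3%, beside 11.3%) and 7 in Bec_LPCs against Hep_LPCs (46.7%, beside 33.4%; 2 higher, 5 lower). Fos was at 22.0 and 19.2 CPM in Bec_LPCs and 0.866 and 2.80 CPM in NPC_LPCs (3.47 ± 0.77, adjusted p = 0.0444). Jun was at 86.7 and 93.9 CPM in Bec_LPCs and 261 and 391.5 CPM in Hep_LPCs (-1.85 ± 0.32, adjusted p = 0.0119). Fosl1, the AP-1 subunit Fra-1, was at 11.7 and 13.5 CPM in Bec_LPCs, 289 and 298.5 CPM in Hep_LPCs, and 105 and 97.7 CPM in NPC_LPCs. It was lower in Bec_LPCs against Hep_LPCs (-4.54 ± 0.18, adjusted p = 2.93e-04) and against NPC_LPCs (-3.01 ± 0.17, adjusted p = 0.00111). Fosl1 shares 57.2% of its exonic length with another gene and was not taken as counted alike, so a difference in counting between the tables cannot be told apart from one in expression. Ets2 was lower (-1.06 ± 0.19) and Runx1 higher (1.17 ± 0.16) in Bec_LPCs against Hep_LPCs.

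The genes whose log2 CPM followed each member most closely over the 6 libraries were looked up among 2732 or 2733 genes with an SD of at least 1. For Mmp14 they were Ccdc24 (Pearson's r = 0.999), Slc16a3, a lactate exporter (0.990), and Egfl8 (0.966). For Mmp13 they included Kng2, a kininogen (0.991), and Ppbp, a chemokine (0.988). For Mmp15 they were Nbl1, a BMP antagonist (0.993), Wnt7b, a WNT ligand (0.992), and Psg17 (0.992). For Timp3 they were Znfx1 (0.993), Tgtp2, an interferon-induced GTPase (0.992), and Cotl1 (0.989). For Timp2 they were Fbxl2 (0.993), Sema4f (0.992) and Dixdc1 (0.990). Some of these genes were low in every library, so that their r rests on few reads. Over the 6 libraries Ccdc24 was at 0 to 2.49 CPM, Egfl8 at 0.0585 to 1.60, Kng2 at 0 to 1.93, Ppbp at 0.102 to 0.937 and Psg17 at 0.117 to 2.83 CPM. With 6 libraries in 3 groups that share depth and preparation, values of r are descriptions with no test. Among the members themselves the closest pairs were Mmp9 with Timp3 (r = 0.857) and Mmp7 with Mmp10 (0.786), and Mmp9 with Mmp13 ran opposite (-0.916). NPC_LPCs replicate 2 held the highest Mmp9 and Timp3 and the lowest Mmp13 of all 6 libraries.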

How the data were processed

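Polyadenylated RNA was sequenced paired-end from a stranded kit, per the labels' protocols. Trimmomatic, HISAT2, Cufflinks, HTSeq and DESeq are the tools and mm10 the build that the submitters' processing notes name, without versions, settings, annotation or strand setting. As deposited by the authors there is 1 table per library, with whole-number counts per gene symbol, and FPKM (reads scaled for gene length and depth) beside them in the Hep_LPCs and NPC_LPCs tables, per the file headers. FPKM served for 1 alternative and for the values quoted.

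Older symbols were updated (16 for Bec_LPCs, 843 for the remaining groups), leaving 20573 in common, holding 95.3% to 99.5% of counts; date-like names (27) and 14 unnamed entries (44 and 41 reads, 0.000191% and 0.000181% of counts) were dropped. Hep_LPCs and NPC_LPCs were fitted on their 4 libraries, Bec_LPCs comparisons on all 6: edgeR 4.0.16 with filterByExpr, TMM, glmQLFit (robust) and glmQLFTest, two-sided, Benjamini-Hochberg over all genes, threshold 0.05 (R 4.3.3). SEs were taken as the absolute log2 fold over the root of the F statistic. The scripts were tested on simulated data. All 10 members passed the filter of the 6-library fit. Exonic lengths and positions are from GENCODE M21. Genes taken as counted alike are protein-coding, share at most 25% of exonic length with another protein-coding gene (bedtools 2.31.1) and lack a copy with 95% identity or more across 200 bases (minimap2 2.31-r1302). Timp3 is not among them, since 1 such match was found. Overlapping genes were not left out of that search, so the match may be the stretch that Timp3 shares with Syn3.

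Alternatives were DESeq2 size factors and Wald test (DESeq2 1.42.0), limma-voom (limma 3.58.1), unscaled library size, no filter or 10 CPM in 2 libraries, the replicate block, the other set of libraries, counted-alike genes, symbols as deposited, limma on log2(FPKM + 1), where genes needed an FPKM of 1 in 2 libraries and folds of low genes are understated, and each library left out. The members, lists and tests were chosen with earlier results of these data known. Named were all members, up to 4 called genes per list and comparison by smallest adjusted p, Timp1, the cluster genes and the 3 genes most like a member, of which 1 is not reported here.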

Additional observations from a re-analysis of the deposited data

How the results depend on the processing

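The fold changes of the members kept direction and side of the threshold in 357 of 405 recomputed values, passed the threshold in 28 and turned in 20. Leaving out 1 library gave 0 to 360 calls in Hep_LPCs against NPC_LPCs (98 otherwise), 115 to 2363 in Bec_LPCs against NPC_LPCs (1457) and 491 to 4908 in Bec_LPCs against Hep_LPCs (4293). The fewest came without either Hep_LPCs library in the first (edgeR called 0, with 2056 and 2256 genes under 0.05 before adjustment) and without a Bec_LPCs library in the others. Members called then ranged from 0 to 1, 0 to 2 and 0 to 3. A group left with 1 library is assumed to vary like the others. Hep_LPCs against NPC_LPCs gave 515 calls with no filter, 165 at 10 CPM, 1516 by DESeq2, 5 by limma-voom, 1274 in the fit of 6 (0 members) and 212 on FPKM. Bec_LPCs against NPC_LPCs gave 2898 by DESeq2, 2492 in its 4 libraries and 831 among counted-alike genes. Members called were 1, 0 and 3 by DESeq2, 0, 1 and 1 by limma-voom, and 3 and 3 in the 4-library fits of Bec_LPCs. The cause was not tested.

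Between libraries of equal replicate number, deviations from the group means correlated at -0.0396, 0.0867 and -0.00875 over all 12868 genes. Such values do not speak for single genes. Mmp2, Mmp3, Mmp10 and Mmp13 were higher in replicate 1 of both Hep_LPCs and NPC_LPCs, and Mmp14, Mmp15, Timp2 and Timp3 in replicate 2 of both. In Bec_LPCs these directions were reversed except for Timp3. A factor shared by libraries of equal number was not tested for the members. With a replicate block there were 125, 770 and 3389 calls in Hep_LPCs against NPC_LPCs, Bec_LPCs against NPC_LPCs and Bec_LPCs against Hep_LPCs, and 0 members in each. In that order of comparisons, members that turned with the block were Mmp13 in the first (1.32), Mmp2 (0.12) and Mmp9 (0.23) in the second and Mmp2 in the third (0.96).

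In Hep_LPCs against NPC_LPCs, Mmp13 also turned by limma-voom (1.44) and on FPKM (0.96). With 1 library left out, Mmp13 ranged from -1.10 to 4.23 (0.59 without Hep_LPCs replicate 2, the highest without NPC_LPCs replicate 1), Mmp2 from -4.19 to 1.94 (0.22 without Hep_LPCs replicate 2, the highest without NPC_LPCs replicate 1), Mmp14 from -1.48 to 0.031 and Mmp15 from -1.15 to 0.25 (both highest without Hep_LPCs replicate 1). In Bec_LPCs against NPC_LPCs, Mmp9 turned by limma-voom (1.26). Mmp2 ranged from -2.15 to 1.37 and Mmp13 from -4.62 to 0.57 (highest without NPC_LPCs replicate 1), and Timp3 from -1.95 to 0.013 and Mmp9 from -2.29 to 7.31 (highest without NPC_LPCs replicate 2). In Bec_LPCs against Hep_LPCs, Mmp2 turned by limma-voom (0.67) and ranged from -1.48 to 2.93 (highest without Hep_LPCs replicate 1), and Mmp14 from -1.13 to 0.37 (highest without Hep_LPCs replicate 2). Depth limits Mmp3, Mmp7 and Mmp9, whose zeros lie under 0.178 CPM.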
